A study of Arabidopsis thaliana with 27 samples.

Results

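The clade A protein phosphatases type 2C (PP2Cs) are the core negative regulators of abscisic acid (ABA) signaling, and their 9 genes in Arabidopsis were taken by locus identifier from a table of 32833 genes. The genes are ABI1 (AT4G26080), ABI2 (AT5G57050), HAB1 (AT1G72770), HAB2 (AT1G17550), AHG1 (AT5G51760), AHG3, also called PP2CA (AT3G11410), HAI1 (AT5G59220), HAI2 (AT1G07430) and HAI3 (AT2G29380). Transcripts were measured by RNA-seq in 3-day-old wild-type seedlings (ecotype given as Col-O in the labels) that had been kept in dishes with NAE 18:3, NAE 18:2 or the solvent DMSO (0.2%). NAE 18:3 and NAE 18:2 are N-acylethanolamines, ethanolamides of linolenic and linoleic acid that differ by a double bond in the acyl chain. NAE 18:3 was given at 70 µM in the labels and at 80 µM in the series description, and NAE 18:2 at 40 µM, so compound and dose cannot be told apart when these groups are set against each other. The treatment lasted 1 h in the labels and 1 to 3 h in the study's methods. Each treatment was sampled as dissected roots, dissected cotyledons and whole seedlings, with 3 libraries for each of the 9 groups, 27 in all, and each library held many pooled seedlings, since dishes held groups of 50. The study's methods call the 3 libraries of a group biological replicates without saying whether they shared a culture flask or a day, and p-values measure the spread between these libraries.

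When ABA is absent, clade A PP2Cs dephosphorylate and hold inactive the SnRK2 kinases that carry the ABA signal. ABA binds PYR/PYL/RCAR receptors, which then dock onto the phosphatases and block them, and the freed kinases activate ABF and ABI5 transcription factors at ABA-response elements. Several clade A PP2C genes are themselves induced by ABA through such elements, which makes the phosphatases a negative feedback on the pathway. In young seedlings ABA can hold growth after germination, and AHG1 and AHG3 are known chiefly from seeds and germination.

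All 9 genes code for protein and lie on chromosomes 1 to 5 of the TAIR10.1 assembly. No member had a near copy elsewhere in the transcript set. The closest relatives by nucleotide sequence were HAB1 and HAB2, with 79.3% identity over the aligned 916 bases, and ABI1 and ABI2, with 78.4% over 1071 bases. The ABI1 gene overlapped MEK1, a MAP kinase kinase gene on the opposite strand, over 22 bases or 0.894% of its span. ABA-response elements share the core letters ACGTG, and the 300 bases before each annotated gene start were searched on both strands for ACGTG and for the longer ACGTGNC, which contains it. HAI2 and AHG3 held 5 ACGTG matches each, HAB2, AHG1 and HAI3 held 2 each, ABI1 and HAB1 held 1 each, and ABI2 and HAI1 held 0. A palindrome CACGTG counts once on each strand. Among 27443 protein-coding genes, 25.6% held ACGTG in the same window and 3.44% held 3 or more matches. The longer element was found in AHG3 (3 matches), HAI2 (2), ABI1 (1) and HAB1 (1), and in 9.46% of all promoters. A match is a description of the letters and not a binding site. The upstream sequences of 4 members are shown because HAI2 and ABI2 were called under both NAEs, ABI1 differed between organs, and AHG3 held as many elements as HAI2. They were read from the RefSeq copy of TAIR10.1, 5' to 3' on the strand of the gene and ending at the base before the gene start, with ACGTG or its reverse complement in capitals.
HAI2 promoter (chr1:2282829-2283128, minus strand): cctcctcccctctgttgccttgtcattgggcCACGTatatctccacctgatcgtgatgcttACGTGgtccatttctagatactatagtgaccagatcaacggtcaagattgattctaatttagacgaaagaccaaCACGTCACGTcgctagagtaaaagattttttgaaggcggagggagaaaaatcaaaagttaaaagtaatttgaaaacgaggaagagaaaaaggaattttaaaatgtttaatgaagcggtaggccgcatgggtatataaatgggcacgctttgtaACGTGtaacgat
ABI2 promoter (chr5:23086822-23087121, plus strand): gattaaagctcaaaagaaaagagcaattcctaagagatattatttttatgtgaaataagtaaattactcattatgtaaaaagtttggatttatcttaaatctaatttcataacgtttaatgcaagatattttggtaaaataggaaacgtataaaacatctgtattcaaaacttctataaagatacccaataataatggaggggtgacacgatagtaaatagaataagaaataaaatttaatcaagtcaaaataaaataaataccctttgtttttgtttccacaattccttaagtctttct
ABI1 promoter (chr4:13222377-13222676, minus strand): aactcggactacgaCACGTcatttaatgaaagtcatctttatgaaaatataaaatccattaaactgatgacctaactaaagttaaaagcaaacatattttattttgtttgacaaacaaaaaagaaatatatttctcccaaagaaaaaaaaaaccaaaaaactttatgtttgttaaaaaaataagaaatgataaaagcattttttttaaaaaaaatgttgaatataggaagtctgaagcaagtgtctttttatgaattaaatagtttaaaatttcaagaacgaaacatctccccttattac
AHG3 promoter (chr3:3585851-3586150, minus strand): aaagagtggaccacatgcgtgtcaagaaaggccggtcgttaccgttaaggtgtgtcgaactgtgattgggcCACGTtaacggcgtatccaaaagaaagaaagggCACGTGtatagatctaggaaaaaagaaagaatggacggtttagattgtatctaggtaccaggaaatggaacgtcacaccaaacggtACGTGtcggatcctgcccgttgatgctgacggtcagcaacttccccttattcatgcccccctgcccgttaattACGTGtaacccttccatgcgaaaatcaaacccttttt

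**Figure D1:**
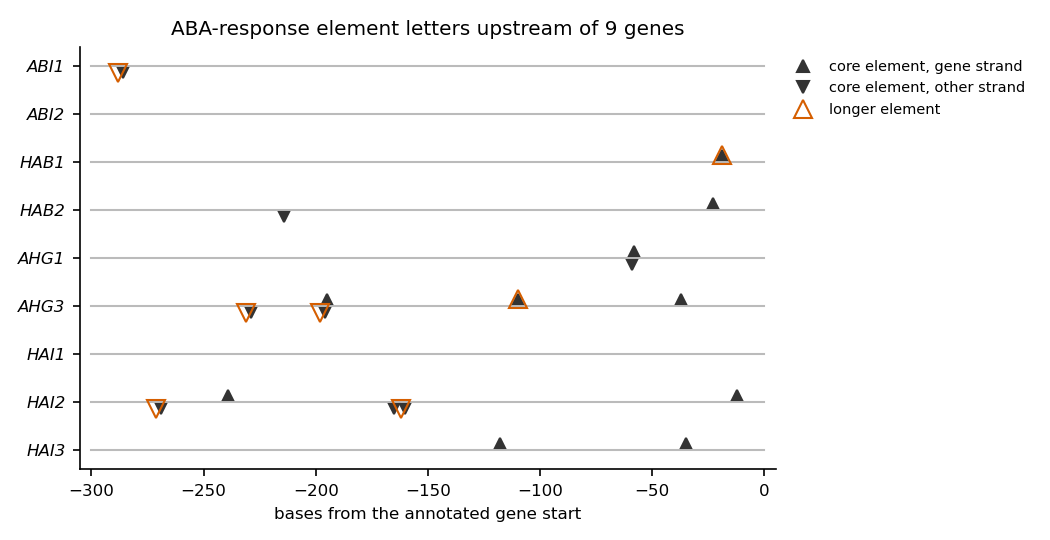
Positions of ABA-response element letters in the 300 bases upstream of each gene, with distance in bases from the annotated gene start on the x axis. Filled triangles mark the core element on the gene strand (up) or the other strand (down), and open triangles mark the longer element. HAI2 and AHG3 carried 5 core matches each, and the lines of ABI2 and HAI1 are empty.

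Total counts per library ran between 17781269 and 38635934 (median 26436942). The organ labels were checked with 9 root and 8 cotyledon marker genes. Between DMSO roots and DMSO cotyledons, 7 of 9 root markers were called higher and 8 of 8 cotyledon markers were called lower in roots, and the endodermis gene SCR and the beta-glucosidase gene PYK10 were the root markers not called. Levels are given in CPM, the count of a gene after its library is scaled to 1000000 counts with a TMM factor. The 9 root markers summed to 970.1 to 1356 CPM in NAE 18:3 roots, 2783 to 3384 CPM in NAE 18:2 roots and 2560 to 4818 CPM in DMSO roots, but also to 3172 to 3601 CPM in DMSO cotyledons, so that the sum did not separate the organs. Without SCR and PYK10, left out after their values were seen, the other 7 summed to 255 to 300 CPM in NAE 18:3 roots, 397 to 438 CPM in NAE 18:2 roots and 330 to 486 CPM in DMSO roots. In cotyledons these 7 summed to 17.3 to 22.5 CPM with NAE 18:3, 2.95 to 3.82 CPM with NAE 18:2 and 1.89 to 4 CPM with DMSO. Of 4 root markers tested in cotyledons, 1 was called higher with NAE 18:3 than with DMSO, where 6.33% of genes were called higher. The median log2 fold change of these 4 was -0.223. Of the 9 root markers, 5 were called lower in NAE 18:3 roots than in DMSO roots (EXPA7, CASP1, COBL9, RHD6 and PYK10), where 16.8% of genes were called lower. Summed cotyledon markers were at 632.7 CPM in NAE 18:3 roots replicate 3 and between 19.05 and 47 CPM in the other 8 root libraries. In whole seedlings, replicates 1 and 3 of NAE 18:2 differed less than any other replicate pair, with a chi-square per degree of freedom of 1.87 against 9.89 for the next of 27 pairs. The treated seedlings grouped across their treatment labels. NAE 18:3 replicate 1 and NAE 18:2 replicate 2 were at 19.7 from each other, against 98 and 232 from the other NAE 18:3 seedlings and 123 and 130 from the other NAE 18:2 seedlings, while NAE 18:3 replicate 3 was at 17.9 and 18 from NAE 18:2 replicates 1 and 3. This measure also rises with depth.

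At baseline, the order of the members was led by ABI1 in every organ. Per kilobase of exon, ABI1 averaged 31.5 ± 1.5 CPM in DMSO roots, 22.3 ± 1.7 CPM in DMSO cotyledons and 19.7 ± 3.0 CPM in DMSO seedlings (SD, n = 3 each), and its libraries did not overlap those of the next member in any of them. HAB1, HAB2 and AHG3 followed with means between 8.78 and 16.2 CPM per kilobase. HAB1 and AHG3 overlapped in DMSO roots and in DMSO seedlings, and AHG3 and HAB2 overlapped in DMSO cotyledons, so these neighbours could not be ordered beyond their spread. ABI2, the closest relative of ABI1, stood at 1.84 ± 0.05 CPM per kilobase in DMSO roots and 1.94 ± 0.18 CPM per kilobase in DMSO cotyledons. HAI1, HAI2, HAI3 and AHG1 averaged at most 0.481 CPM per kilobase in the DMSO groups. With 8 of 9 members tested, 0 were called between DMSO roots and DMSO cotyledons by edgeR's quasi-likelihood test, where 42.4% of 21643 tested genes were called. Calls needed a Benjamini-Hochberg adjusted p below 0.01 and a change of more than 1 on the log2 scale in either direction. Of the members, 2 (ABI1 and HAB2) had an unadjusted p under 0.05, as did 71.2% of genes, and DESeq2 also called 0 members. HAB2 was higher in roots by a log2 fold change of 0.50 (standard error 0.09, edgeR adjusted p = 5.4e-05), and ABI1 stood 0.51 higher on the log2 scale (standard error 0.20, edgeR adjusted p = 0.028).

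**Figure D2:**
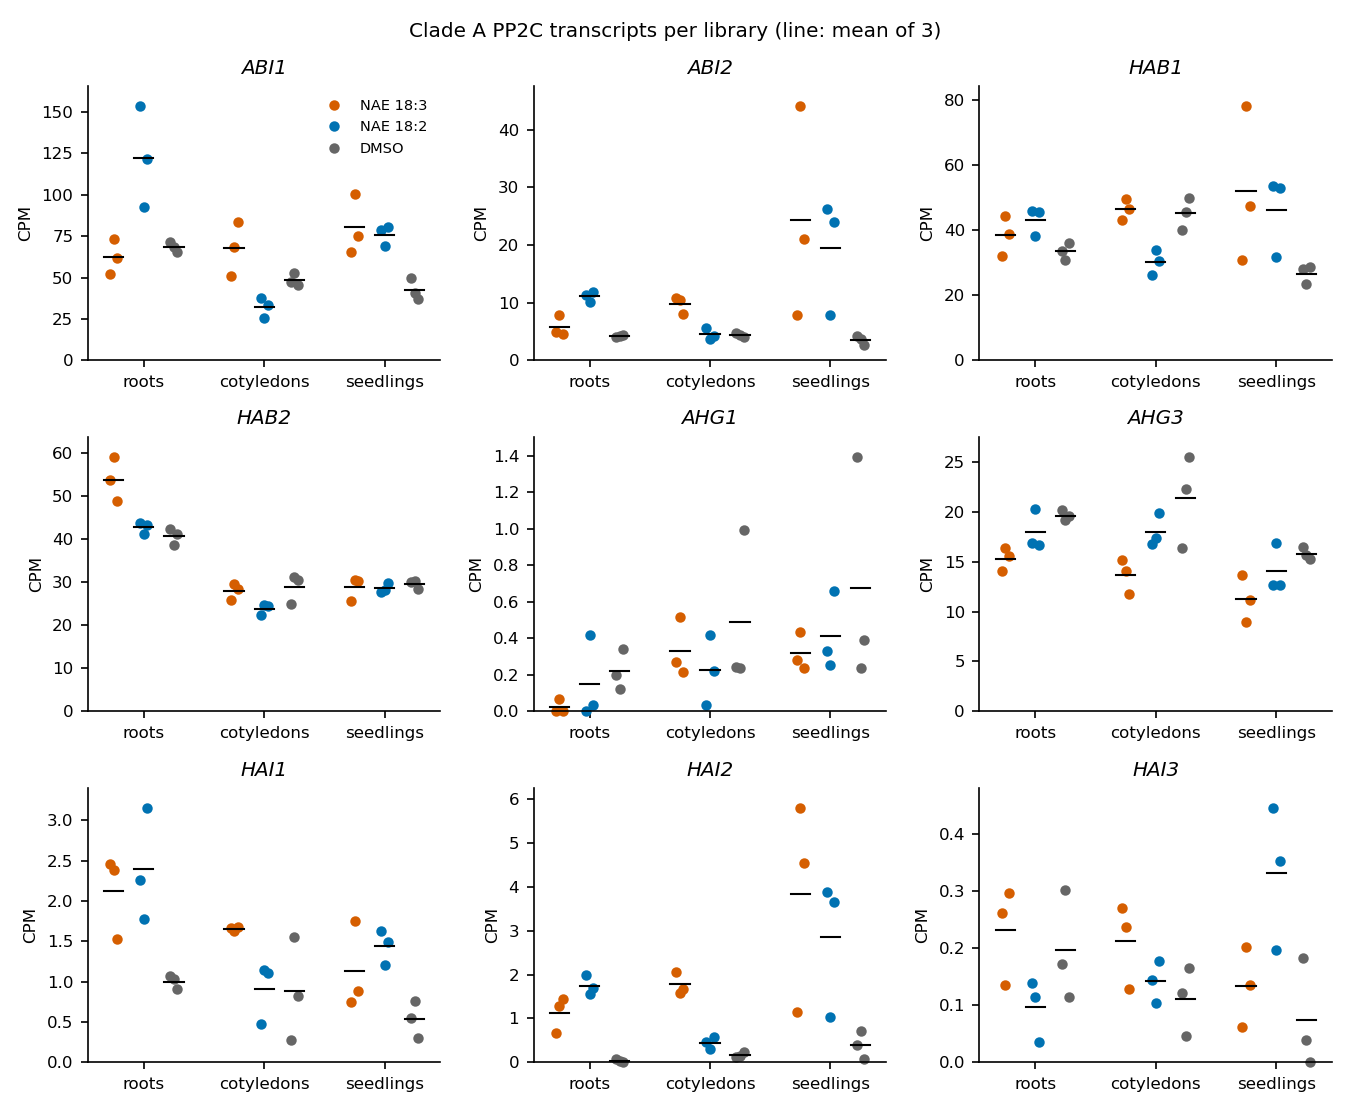
Level of each gene in every library, in CPM on a linear axis that starts at 0, by organ and treatment, where each point is a library and the line is the mean of 3. ABI1 in roots is highest in the NAE 18:2 libraries (92.6 to 153 CPM) and in cotyledons is lowest in the NAE 18:2 libraries (25.4 to 37.4 CPM), and HAI2 reaches at most 0.716 CPM in a DMSO library.

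HAI2 and ABI2 were the members called against DMSO, in roots and in cotyledons. HAI2 was so low in DMSO in both organs that it passed the filter on low counts through treated libraries. It could be tested there only if it rose, and every count of calls that includes HAI2 in these organs carries this limit. In roots, 1 of 7 tested members (HAI2) was called higher with NAE 18:3, where 22.7% of 20138 genes were called and 5.94% were called higher, and 2 (ABI2 and HAI2) were called higher with NAE 18:2, where 8.7% of genes were called and 5.68% were called higher. At an unadjusted p under 0.05 the root counts were 4 of 7 members with NAE 18:3, where 63% of genes passed, and 5 of 7 with NAE 18:2, where 45.4% passed. In cotyledons, 2 of 8 tested members (ABI2 and HAI2) were called higher with NAE 18:3, where 8.82% of 19444 genes were called and 6.33% were called higher, and 0 with NAE 18:2, where 0.725% were called. With NAE 18:3 in cotyledons, 4 of 8 members had an unadjusted p under 0.05, as did 40.4% of genes. For NAE 18:2 in cotyledons, 4 members had an unadjusted p under 0.05 (ABI1, HAB1, HAB2 and HAI2), as did 25.5% of genes, and DESeq2 called 0. In whole seedlings 0 of 8 tested members passed edgeR's test in either comparison, where 1.91% of 20911 genes were called for NAE 18:3 and 0.88% for NAE 18:2, while 6 members for NAE 18:3 and 5 for NAE 18:2 had an unadjusted p under 0.05, as did 41% and 30.9% of genes, and DESeq2 called 2 for each, where it called 12.7% and 8.18% of genes. No member was called lower than in DMSO in the 6 comparisons. The libraries of an NAE group and DMSO did not overlap for 67.8% of genes with NAE 18:3 and 51.2% with NAE 18:2 in roots, for 45.6% and 28.1% in cotyledons, and for 46.4% and 43.2% in seedlings. Between NAE 18:3 and NAE 18:2 the libraries did not overlap for 64.2% of genes in roots, 43.6% in cotyledons and 9.24% in seedlings. Both NAEs were set against the same DMSO libraries, so their values stand side by side here and are not independent of each other. Of the 9 members, HAI3 passed the filter on low counts in no organ and AHG1 did not pass it in roots. In tissue of many cells, fewer cells of a type and less RNA per cell cannot be told apart.

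**Figure D3:**
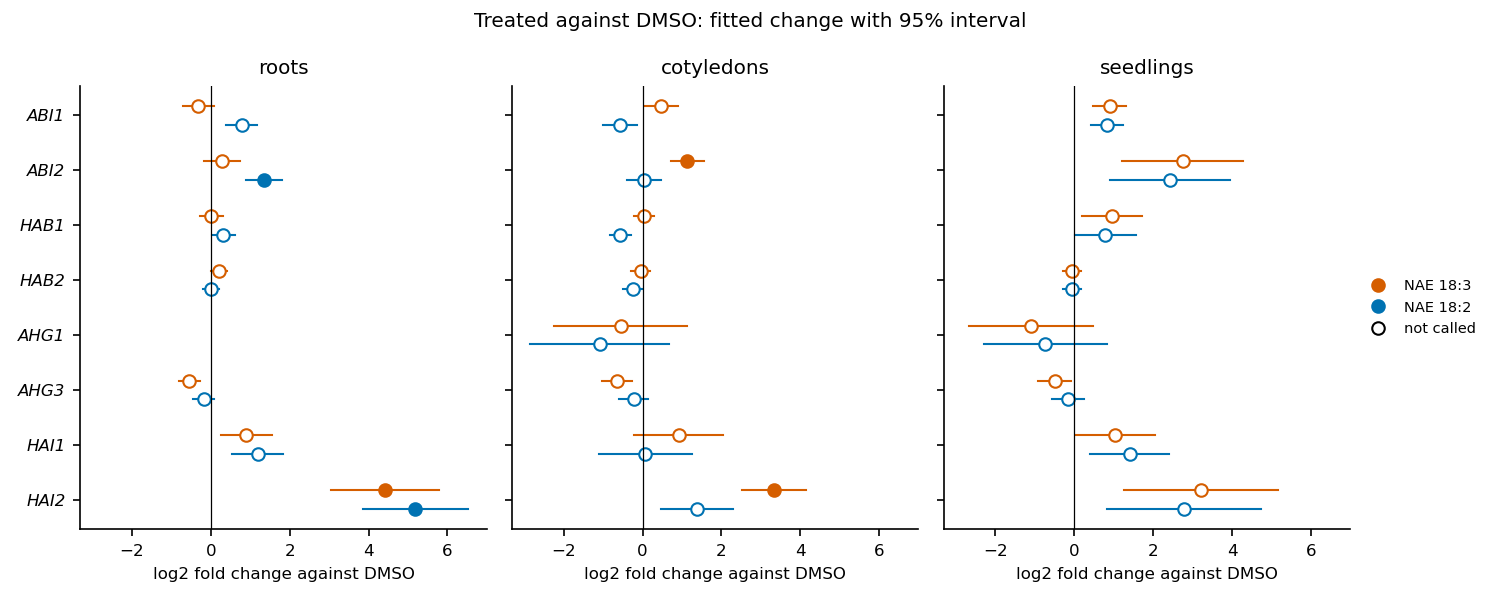
Fitted log2 fold change of each tested member against DMSO (x axis) with its 95% interval, by organ and treatment, where filled points were called. The filled points are HAI2 and ABI2 in roots and cotyledons, and the seedling intervals of HAI2 and ABI2 are wide. HAI3 was not tested, nor was AHG1 in roots, and the root points of HAI2 depend on the prior count because DMSO roots were at the counting floor.

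HAI2, a member of the highly ABA-induced subgroup, had the largest fold changes of the tested members against DMSO in roots and cotyledons. Its DMSO libraries held at most 3 counts in roots and 6 in cotyledons, so HAI2 passed the filter on low counts through treated libraries. A gene this low in DMSO could enter the test only if it rose, and the rank of HAI2 holds among members that passed. In roots, HAI2 stood at 0.671, 1.29 and 1.43 CPM in the NAE 18:3 libraries, at 1.98, 1.55 and 1.70 CPM in the NAE 18:2 libraries and at 0.0864, 0.0302 and 0 CPM in the DMSO libraries. The counts in DMSO roots were 3, 1 and 0, at or under the counting floor of 3, against 18 to 38 counts in NAE 18:3 roots and 41 to 57 counts in NAE 18:2 roots, so all treated root libraries lay above all DMSO root libraries. The ratio of summed, depth-corrected counts was 26.1 for NAE 18:3 (95% counting interval 9.85 to 98.2) and 41.2 for NAE 18:2 (15.7 to 153), and these intervals cover counting error only. The fitted log2 fold changes depend on the prior count and were 4.43 (standard error 0.61, edgeR adjusted p = 3.36e-04) for NAE 18:3 and 5.19 (standard error 0.59, edgeR adjusted p = 5.04e-04) for NAE 18:2. Both calls held without each library in turn, with log2 fold changes between 4.02 and 5.59 for NAE 18:3 and between 4.76 and 6.33 for NAE 18:2.

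In cotyledons the response of HAI2 was higher with NAE 18:3. The libraries held 2.06, 1.58 and 1.68 CPM in NAE 18:3 cotyledons, 0.470, 0.313 and 0.577 CPM in NAE 18:2 cotyledons and 0.121, 0.141 and 0.248 CPM in DMSO cotyledons, and the groups did not overlap. Against DMSO, the log2 fold change was 3.33 for NAE 18:3 (standard error 0.36, edgeR adjusted p = 1.52e-04) and 1.39 for NAE 18:2 (standard error 0.41, edgeR adjusted p = 0.0712), which did not pass. The summed counts behind these values were 125 in NAE 18:3 cotyledons, 35 in NAE 18:2 cotyledons and 12 in DMSO cotyledons. HAI2 was a low transcript where it was called, at 0.93 ± 0.13 CPM per kilobase in NAE 18:3 cotyledons and 0.92 ± 0.11 CPM per kilobase in NAE 18:2 roots (SD, n = 3 each). The upstream sequence of HAI2, printed above, held 5 core elements. AHG3 held the same number and had a negative log2 fold change in each of the 6 comparisons with DMSO, none of them called. A link between the elements and these changes was not tested.

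HAI1 and HAI3 belong to the same subgroup as HAI2. HAI1 in roots stood at 2.46, 2.38 and 1.53 CPM with NAE 18:3, at 2.26, 1.78 and 3.15 CPM with NAE 18:2 and at 1.07, 1.03 and 0.912 CPM with DMSO. All treated root libraries lay above the DMSO libraries, but HAI1 missed the adjusted p threshold, with log2 fold changes of 0.90 for NAE 18:3 (standard error 0.29, edgeR adjusted p = 0.024) and 1.19 for NAE 18:2 (standard error 0.29, edgeR adjusted p = 0.0129). DESeq2 called HAI1 higher in NAE 18:2 roots, at a log2 fold change of 1.19 with an adjusted p of 0.00242. In cotyledons, HAI1 was between 1.62 and 1.68 CPM with NAE 18:3, between 0.470 and 1.15 CPM with NAE 18:2 and between 0.282 and 1.55 CPM with DMSO, and neither comparison passed. HAI3 reached at most 12 counts in any library. The ratio of summed HAI3 counts in seedlings was 1.65 for NAE 18:3 (95% counting interval 0.573 to 5.36) and 3.97 for NAE 18:2 (1.61 to 11.8) against DMSO, from 12, 27 and 6 counts in the NAE 18:3, NAE 18:2 and DMSO libraries. These intervals cover counting error only, not the spread between libraries, and HAI3 was not tested.

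ABI2, a phosphatase known from a dominant ABA-insensitive mutant, had higher transcript levels in the organ and treatment combinations NAE 18:2 with roots and NAE 18:3 with cotyledons. In roots, ABI2 stood at 5.00, 7.88 and 4.55 CPM with NAE 18:3, at 11.4, 10.1 and 11.8 CPM with NAE 18:2 and at 4.12, 4.17 and 4.33 CPM with DMSO. Every treated root library lay above every DMSO root library, and the NAE 18:3 libraries lay below those of NAE 18:2. In roots, 64.2% of genes had libraries that did not overlap between the NAEs. The log2 fold change against DMSO was 0.28 for NAE 18:3 (standard error 0.20, edgeR adjusted p = 0.257) and 1.34 for NAE 18:2 (standard error 0.20, edgeR adjusted p = 0.00172). In cotyledons, ABI2 stood at 10.8, 10.5 and 8.04 CPM with NAE 18:3, at 5.60, 3.68 and 4.21 CPM with NAE 18:2 and at 4.83, 4.47 and 4.02 CPM with DMSO. The NAE 18:3 cotyledon libraries lay above all others, and those of NAE 18:2 and DMSO overlapped. The log2 fold change against DMSO was 1.14 for NAE 18:3 (standard error 0.19, edgeR adjusted p = 0.00177) and 0.05 for NAE 18:2 (standard error 0.19, 95% interval -0.39 to 0.48, edgeR adjusted p = 0.906). Both ABI2 calls held without each library in turn, with edgeR adjusted p of at most 0.0097 in roots and 0.00999 in cotyledons. In a fit of all 27 libraries the ABI2 calls were lost, with adjusted p = 0.0195 for NAE 18:2 in roots and adjusted p = 0.0713 for NAE 18:3 in cotyledons (edgeR).

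ABI1, the most abundant member, shared this crossed arrangement at smaller fold changes. In roots, ABI1 stood at 52.0, 73.2 and 61.8 CPM with NAE 18:3, at 153, 92.6 and 121 CPM with NAE 18:2 and at 71.6, 68.4 and 65.2 CPM with DMSO. The NAE 18:2 libraries lay above all others, and those of NAE 18:3 and DMSO overlapped. Against DMSO, the log2 fold change was -0.32 for NAE 18:3 (standard error 0.17, edgeR adjusted p = 0.14) and 0.78 for NAE 18:2 (standard error 0.17, edgeR adjusted p = 0.0097), and the change with NAE 18:2 passed the p threshold, as did 15.9% of genes, but not the fold threshold. In cotyledons, ABI1 stood at 50.9, 68.4 and 83.6 CPM with NAE 18:3, at 37.4, 25.4 and 33.4 CPM with NAE 18:2 and at 47.5, 52.6 and 45.2 CPM with DMSO. All NAE 18:2 cotyledon libraries lay below the DMSO libraries, and those of NAE 18:3 overlapped with DMSO. Neither difference from DMSO passed in cotyledons, with log2 fold changes of 0.48 for NAE 18:3 (standard error 0.19, edgeR adjusted p = 0.089) and -0.57 for NAE 18:2 (standard error 0.19, edgeR adjusted p = 0.105).

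The NAE groups were then set directly against each other within an organ, a contrast of treated libraries only. In cotyledons, 3 of 8 tested members were called higher with NAE 18:3 than with NAE 18:2, where 4.33% of genes were called and 3.91% were called higher. These were HAI2 at a log2 fold change of 1.94 (standard error 0.31, edgeR adjusted p = 0.00259), ABI2 with 1.09 (standard error 0.19, edgeR adjusted p = 0.00411) and ABI1 with 1.05 (standard error 0.19, edgeR adjusted p = 0.00573). In roots, 2 of 7 tested members were called lower with NAE 18:3 than with NAE 18:2, where 17.2% of genes were called and 15.3% were called lower. These were ABI1 at a log2 fold change of -1.10 (standard error 0.18, edgeR adjusted p = 0.00115) and ABI2 with -1.06 (standard error 0.20, edgeR adjusted p = 0.00254). HAI2 had -0.76 in roots (95% interval -1.69 to 0.17, edgeR adjusted p = 0.146). ABI1 and ABI2 were higher with NAE 18:3 in cotyledons and lower with NAE 18:3 in roots. Some markers moved with these contrasts. In roots, 5 of 9 root markers were called lower with NAE 18:3 than with NAE 18:2 (CASP1, COBL9, EXPA7, RHD6 and PYK10). In cotyledons, 1 of 4 tested root markers was called higher with NAE 18:3, and the median log2 fold change of the 4 was -0.0147. The 7 root markers kept after their values were seen summed to 17.3 to 22.5 CPM in NAE 18:3 cotyledons and 2.95 to 3.82 CPM in NAE 18:2 cotyledons. All 9 root markers summed to 2237 to 3689 CPM and 2928 to 3395 CPM in these groups, which overlap. The part of the markers in these differences was not tested.

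These contrasts lay near the thresholds and depended on single libraries. In cotyledons, ABI1 was not called without NAE 18:2 replicate 2 (adjusted p = 0.0158) or 3 (0.0212) or without NAE 18:3 replicate 2 (0.0257) or 3 (0.0204), ABI2 was not called without NAE 18:2 replicate 2 (0.0131) or 3 (0.0189) or without NAE 18:3 replicate 1 (0.0199) or 2 (0.0225), and HAI2 was not called without NAE 18:2 replicate 2 (0.0103) or without NAE 18:3 replicate 1 (0.0139) or 2 (0.0111), all by edgeR. ABI1 in cotyledons also lost its call with the replicate number as a block (edgeR adjusted p = 0.0109) and with only the 6 libraries compared (edgeR adjusted p = 0.0131). In roots, the log2 fold change of ABI1 came under the fold threshold without NAE 18:2 replicate 1 (-0.90) or NAE 18:3 replicate 1 (-0.96), and ABI2 was not called without NAE 18:2 replicate 3 (edgeR adjusted p = 0.0111) or NAE 18:3 replicate 1 (edgeR adjusted p = 0.0116) and fell to -0.91 without NAE 18:3 replicate 3. In a fit of all 27 libraries, ABI1 alone was called in cotyledons (ABI2 had adjusted p = 0.111 and HAI2 adjusted p = 0.0538) and 0 members were called in roots, where ABI1 was at -0.97 (adjusted p = 4.19e-04) and ABI2 at -0.93 (adjusted p = 0.0753), all by edgeR. No single library turned a direction in these 5 contrasts.

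**Figure D4:**
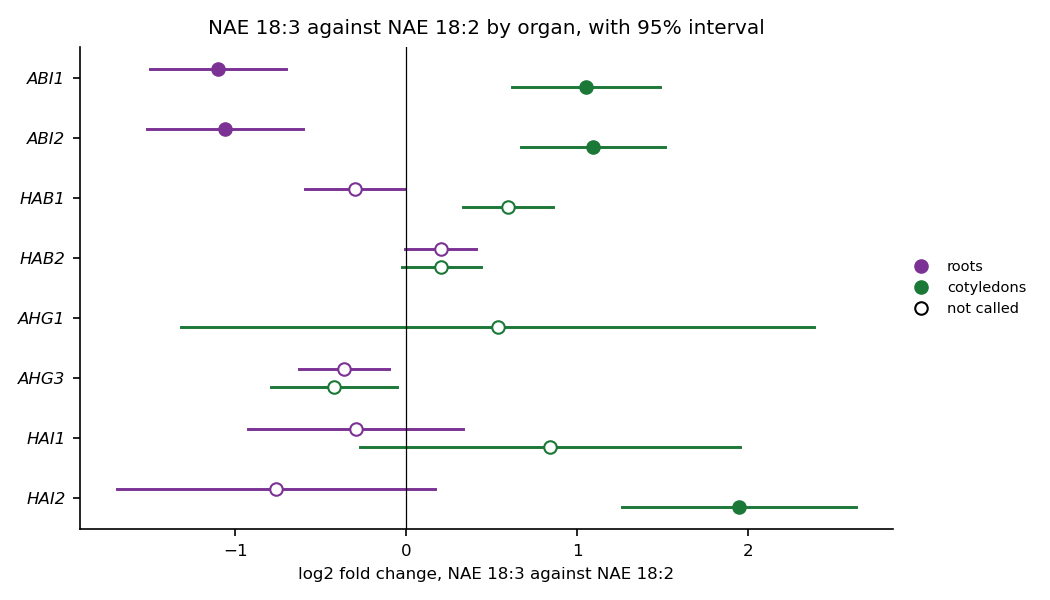
Log2 fold change of NAE 18:3 against NAE 18:2 for each tested member (x axis) with its 95% interval, in roots and in cotyledons, where filled points were called. ABI1 and ABI2 have filled points on opposite sides of 0, at -1.10 and -1.06 in roots and at 1.05 and 1.09 in cotyledons, and HAB2 and AHG3 lie on the same side in both organs.

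Whether an NAE effect differed between organs was tested as an interaction in a fit of all 27 libraries. The NAE 18:2 effect on ABI1 was larger in roots than in cotyledons by a log2 difference of 1.41 (standard error 0.28, edgeR adjusted p = 0.00345), the only member called of 8 tested, where 2.92% of 21643 genes were called and 1.92% were called higher. This call was lost without NAE 18:2 cotyledons replicate 2 (1.27, edgeR adjusted p = 0.01) and without NAE 18:2 roots replicate 1 (1.24, edgeR adjusted p = 0.0131). HAI2 had a difference of 3.84 (standard error 1.20, edgeR adjusted p = 0.037) and ABI2 of 1.36 (standard error 0.62, edgeR adjusted p = 0.149), which did not pass. For NAE 18:3, 0 members were called by edgeR or by DESeq2, where 15.4% of genes were called, although 2 members, ABI1 and HAB2, had an unadjusted p under 0.05, as did 47.9% of genes. A further contrast, chosen after the data were seen, compared the difference between NAE 18:3 and NAE 18:2 across organs without using the DMSO libraries. ABI1 was the member called by edgeR, lower in roots by a log2 difference of -2.05 (standard error 0.28, edgeR adjusted p = 1.79e-05), where 18.7% of genes were called, and this call held without each library in turn. ABI2 had the same difference of -2.05 with a wider error (standard error 0.61, edgeR adjusted p = 0.0105), and HAI2 had -2.60 (standard error 0.83, edgeR adjusted p = 0.0153). DESeq2 called 3 members in this contrast, for which its share over all genes was not taken.

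HAB1 and HAB2, close relatives by sequence, were called in no comparison with DMSO when all libraries were used. HAB1 in cotyledons stood at 43.1, 49.6 and 46.4 CPM with NAE 18:3, at 26.1, 33.9 and 30.4 CPM with NAE 18:2 and at 40.1, 45.6 and 49.8 CPM with DMSO. The NAE 18:2 libraries lay below all others, and those of NAE 18:3 and DMSO overlapped. The difference between the NAEs was 0.59 on the log2 scale (standard error 0.12, edgeR adjusted p = 0.00734), past the p threshold, as were 8.44% of genes, but under the fold threshold. Against DMSO, HAB1 had a log2 fold change of 0.03 with NAE 18:3 (95% interval -0.23 to 0.29, edgeR adjusted p = 0.86) and -0.56 with NAE 18:2 (standard error 0.12, edgeR adjusted p = 0.0236, or 0.00845 with the replicate number as a block). HAB2 in roots stood at 53.7, 59.0 and 48.8 CPM with NAE 18:3, at 43.8, 41.1 and 43.4 CPM with NAE 18:2 and at 42.4, 38.6 and 41.2 CPM with DMSO. The NAE 18:3 root libraries were the highest for HAB2, with a log2 fold change against DMSO of 0.22 (standard error 0.09, edgeR adjusted p = 0.0682). HAB2 varied little in seedlings, between 25.7 and 30.6 CPM over all 9 libraries, with 95% intervals of -0.27 to 0.18 for NAE 18:3 and -0.28 to 0.18 for NAE 18:2 on the log2 scale.

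AHG3, which acts in ABA responses of seeds and seedlings, was the abundant member with lower values under NAE 18:3. In roots, AHG3 stood at 14.1, 16.4 and 15.5 CPM with NAE 18:3, at 16.8, 20.3 and 16.7 CPM with NAE 18:2 and at 20.2, 19.2 and 19.5 CPM with DMSO. All NAE 18:3 root libraries lay below the DMSO libraries, and those of NAE 18:2 overlapped with DMSO. The log2 fold change in NAE 18:3 roots was -0.55 (standard error 0.12, edgeR adjusted p = 0.00332), past the p threshold but under the fold threshold, where 41.9% of genes passed that p threshold at any fold. In cotyledons, AHG3 stood at 15.2, 14.1 and 11.8 CPM with NAE 18:3, at 16.8, 17.4 and 19.8 CPM with NAE 18:2 and at 16.4, 22.2 and 25.5 CPM with DMSO. The log2 fold changes were -0.65 for NAE 18:3 (standard error 0.16, edgeR adjusted p = 0.0155) and -0.22 for NAE 18:2 (standard error 0.16, edgeR adjusted p = 0.423). AHG1, the other germination-linked member, was near the limit of detection, with at most 38 counts in any library. Its root counts were 0, 2 and 0 with NAE 18:3, 0, 11 and 1 with NAE 18:2 and 7, 4 and 9 with DMSO. The ratio of summed counts in roots was 0.123 for NAE 18:3 (95% counting interval 0.0139 to 0.507) and 0.682 for NAE 18:2 (0.304 to 1.46) against DMSO. These intervals cover counting error only, not the spread between libraries, and AHG1 was not tested in roots.

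In whole seedlings the same members had high means but a wide spread. ABI2 stood at 7.80, 44.1 and 21.1 CPM with NAE 18:3, at 26.3, 7.95 and 24.1 CPM with NAE 18:2 and at 4.28, 3.78 and 2.71 CPM with DMSO. HAI2 stood at 1.16, 5.79 and 4.54 CPM with NAE 18:3, at 3.89, 1.04 and 3.65 CPM with NAE 18:2 and at 0.403, 0.716 and 0.0874 CPM with DMSO. Every treated seedling library lay above every DMSO library for both genes, and NAE 18:3 replicate 1 and NAE 18:2 replicate 2 were the lowest of the treated. The log2 fold changes of ABI2 were 2.75 for NAE 18:3 (standard error 0.67, edgeR adjusted p = 0.0276) and 2.43 for NAE 18:2 (standard error 0.67, edgeR adjusted p = 0.0592), and those of HAI2 were 3.21 (edgeR adjusted p = 0.0344) and 2.79 (edgeR adjusted p = 0.077). ABI1 stood between 65.3 and 100 CPM with NAE 18:3, between 69.0 and 80.3 CPM with NAE 18:2 and between 37.2 and 49.8 CPM with DMSO, with log2 fold changes of 0.90 (edgeR adjusted p = 0.0172) and 0.83 (edgeR adjusted p = 0.0333). HAB1 followed the same split of libraries, at 30.7, 77.9 and 47.5 CPM with NAE 18:3 and 53.5, 31.7 and 52.8 CPM with NAE 18:2, against 28.0, 23.3 and 28.6 CPM with DMSO.

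The count of calls in seedlings depended on these 2 libraries and on the tool. Without NAE 18:3 seedlings replicate 1, the members called with NAE 18:3 were ABI1 (1.02, edgeR adjusted p = 0.00594) and ABI2 (3.15, edgeR adjusted p = 0.00649), where 10.4% of genes were called and 7.87% were called higher. In an alternative chosen after the data were seen, leaving out both NAE 18:3 replicate 1 and NAE 18:2 replicate 2, 4 members were called higher with NAE 18:3 (ABI1, ABI2, HAB1 and HAI2) and 2 with NAE 18:2 (ABI2 and HAI2), in fits where 22.8% of genes for NAE 18:3 and 19% for NAE 18:2 were called and 11.4% and 10% were called higher. DESeq2 called ABI2 and HAI2 higher under each NAE with all 9 libraries. Marker RNA differed along the same split, with summed cotyledon markers at 32060 CPM in NAE 18:3 replicate 1 and 27940 CPM in NAE 18:2 replicate 2, between 42000 and 51040 CPM in the other 4 treated libraries and between 29510 and 35940 CPM in DMSO seedlings, and its part in these values was not tested. The 7 root markers kept after their values were seen summed to 17.6 to 61.3 CPM with NAE 18:3, 17.2 to 88.1 CPM with NAE 18:2 and 89.2 to 126 CPM with DMSO. All 9 root markers summed to 2599 to 4150 CPM with NAE 18:3, 2928 to 4096 CPM with NAE 18:2 and 4398 to 5065 CPM with DMSO. Between the NAEs, 0 of 8 tested members and 0 of 20911 genes were called (0% of genes by edgeR, with 690 genes or 3.3% and 0 members at an unadjusted p under 0.05, and 0 members called by DESeq2), and the 95% interval for ABI2 ran from -1.10 to 1.73 on the log2 scale. In this contrast the treated libraries grouped across the NAE labels, as given with the chi-square values above.

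The summed level of all 9 genes per kilobase gives the transcript pool of the family. In roots the sum was 75.7 ± 9.8 CPM per kilobase with NAE 18:3, 105 ± 15 with NAE 18:2 and 72.4 ± 2.3 with DMSO (SD, n = 3 each), and all NAE 18:2 libraries (89.7 to 120) lay above all others. In cotyledons the sum was 72.4 ± 7.3 CPM per kilobase with NAE 18:3, 47.5 ± 2.0 with NAE 18:2 and 64.1 ± 5.9 with DMSO, and all NAE 18:2 libraries lay below the others. ABI1 made up 37.8% of the pool in NAE 18:3 roots, 53.1% in NAE 18:2 roots and 43.5% in DMSO roots. ABI2 made up 11.2% in NAE 18:3 seedlings and 10.1% in NAE 18:2 seedlings, against 3.03% in DMSO seedlings. AHG1, HAI1, HAI2 and HAI3 together made up at most 3.2% of the pool in any group. No test was run on the sum.

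**Figure D5:**
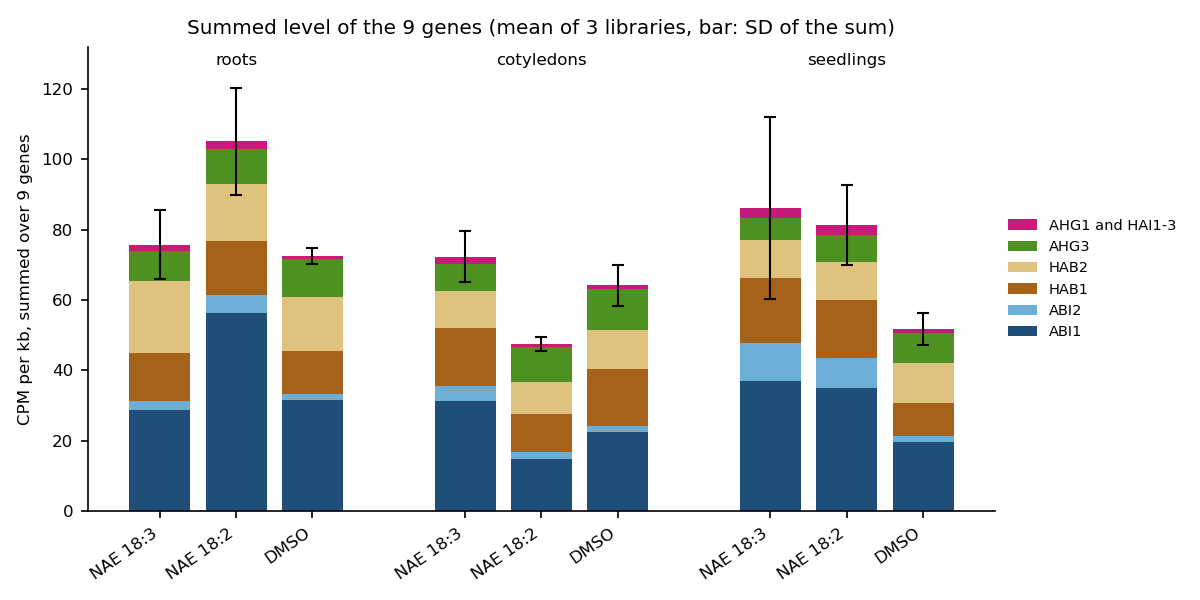
Summed level of the 9 genes in CPM per kilobase of exon (y axis), stacked by gene, as the mean of 3 libraries for each organ and treatment, with the SD of the sum as the error bar. The NAE 18:2 bar is the tallest in roots (105) and the shortest in cotyledons (47.5), and ABI1 is the largest segment in every bar.

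The other genes of the pathway and related phosphatases were counted from gene lists. Of all genes tested, 22.7% were called in NAE 18:3 roots (5.94% higher and 16.8% lower), 8.7% in NAE 18:2 roots, 8.82% in NAE 18:3 cotyledons and 0.725% in NAE 18:2 cotyledons. At an unadjusted p under 0.05 (edgeR), the shares were 63%, 45.4%, 40.4% and 25.5% in the same order. No list was tested against these shares. Of the ABA receptors, 3 of 9 tested were called lower in NAE 18:3 roots (PYL1, PYL6 and PYR1, with log2 fold changes of -1.79, -1.29 and -1.01), and 8 of 9 had an unadjusted p under 0.05 there. In NAE 18:2 roots and in cotyledons with either NAE, 0 receptors were called in either direction by edgeR or DESeq2. In these comparisons 4 of 9 receptors in NAE 18:2 roots, 4 of 10 in NAE 18:3 cotyledons and 2 of 10 in NAE 18:2 cotyledons had an unadjusted p under 0.05. The SnRK2 list holds the whole kinase family, not only the kinases that carry the ABA signal. Of its genes, 1 of 10 tested was higher and 2 were lower in NAE 18:3 roots (SNRK2.3 at 1.54, SNRK2.7 at -5.25 and SNRK2.9 at -2.47). In NAE 18:2 roots 1 was lower (SNRK2.7 at -3.40). In cotyledons 0 SnRK2 genes were called with either NAE by edgeR or DESeq2, where 4 with NAE 18:3 and 2 with NAE 18:2 of 9 had an unadjusted p under 0.05. Of 6 tested ABA transcription factor genes, 1 was called in NAE 18:3 roots, ABF2 (lower, -1.70). Of 15 tested ABA-induced target genes, 1 was higher and 6 were lower in NAE 18:3 roots, where the largest changes were those of the kinase gene MAPKKK18 (5.65), RD29A (-3.72) and the dehydrin gene RAB18 (-2.82). MAPKKK18 was the target gene called in NAE 18:2 roots (3.89), and in NAE 18:3 cotyledons 3 of 17 were called, all higher (the seed protein gene EM1 at 3.27, MAPKKK18 at 2.56 and the NAC factor gene RD26 at 1.38). HAI2 and MAPKKK18 were higher in NAE 18:3 roots, where 6 listed ABA-induced genes were lower. The median log2 fold change over the list of targets was -1.09 in NAE 18:3 roots, against 4.24e-05 over all genes tested, and that of the 7 tested clade A members was 0.22. Of the genes of ABA metabolism, 2 of 10 tested were higher in NAE 18:3 roots (NCED2 at 2.17 and AAO3 at 1.16), 4 of 10 in NAE 18:2 roots (CYP707A4 at 3.27, NCED3 at 2.54, CYP707A1 at 1.80 and 1 more), and 3 of 9 were higher and 2 lower in NAE 18:3 cotyledons (CYP707A2 at -2.50, CYP707A4 at 1.63 and NCED3 at 1.39 had the largest changes). NCED enzymes open the committed step of ABA synthesis and CYP707A enzymes break ABA down.

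Among phosphatases of other clades, AP2C2 of clade B, the clade known for stress MAP kinase phosphatases, was called higher in NAE 18:3 roots (3.17), NAE 18:2 roots (4.22) and NAE 18:3 cotyledons (4.27). AP2C3 of the same clade was called in NAE 18:3 cotyledons (1.70), so that 2 of 4 clade B genes were called there, where 8.82% of all genes were. Of 9 clade D genes, 0 were called there by edgeR or DESeq2 and 5 had an unadjusted p under 0.05, as did 40.4% of all genes. The clades were not tested against each other. In roots, 1 of 9 clade D genes was called lower with NAE 18:3 (PP2C.D1 at -1.89) and 1 higher with NAE 18:2 (PP2C.D8 at 2.29).

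The genes whose pattern over the 27 libraries was most like ABI2 and HAI2 were found by Pearson correlation of log2 CPM after the mean of each organ was subtracted, over 21642 other genes. For ABI2 these were AT2G45500 (0.976), AT4G17070 (0.973) and AtIPCS2 (0.97), a sphingolipid synthase gene. For HAI2 they were AT1G70420 (0.959), A/N-InvC (0.958), an invertase gene, and AOX1D (0.958), an alternative oxidase gene. Within the family, ABI2 correlated at 0.832 with HAB1, at 0.822 with HAI2 and at 0.787 with ABI1, and at -0.637 with AHG3, while HAB2 stayed between -0.20 and 0.43 with the other 7 tested members. These values describe points that share libraries, treatments and depth, and no test was run on them.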

How the data were processed

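RNA-seq libraries of roots, cotyledons and whole seedlings under 3 treatments (3 libraries for each of the 9 groups) were analysed, grouped by their sample labels. The authors trimmed reads with Trimmomatic 0.36 and used STAR 2.6 with default settings for alignment to TAIR10. The counting program, its annotation and its use of strand are not given in the sources used here. The counts in the deposited table are whole numbers, not normalized, for 32833 genes. A further deposited table holds the same counts divided by a factor per library and was not used.

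The main test was the robust two-sided quasi-likelihood F test of edgeR 4.0.16 (R 4.3.3), after filterByExpr at its defaults and TMM scaling. Each organ had its own fit of 9 libraries, and organ contrasts and interactions came from a fit of all 27 libraries. P-values were adjusted by Benjamini-Hochberg over all genes tested, and calls needed an adjusted p below 0.01 and more than a 2-fold change. Standard errors of edgeR log2 fold changes were derived from the test, as the absolute change divided by the square root of F. Their 95% intervals used the t distribution with the degrees of freedom of the test, and both are approximate. DESeq2 1.42.0, RLE normalization, no filter on low counts, an adjusted p under 0.05 at any fold, only the 6 libraries compared, all 27 libraries, a replicate block, a sum of 2 near-equal libraries and leaving out each library were alternatives. Levels are CPM scaled by TMM over 27 libraries, divided by exonic length of TAIR10.1, a later release of the assembly than the authors', where genes are compared. Depth was 17781269 to 38635934 counts per library, and 95% counting intervals are exact. Ratios of low counts use sums over a group, with a floor of 3 counts per library. The scripts were tested on simulated data.

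The members and the other gene lists were chosen with earlier results of these data known. All 9 members were reported, at most 3 called genes of each other list by size of change per comparison, and the 3 genes most like each member called in at least 2 comparisons with DMSO. Pairing was checked by correlating deviations from group means between libraries with the same number. For DMSO and NAE 18:2 cotyledons all 3 correlations exceeded 0.1 (0.106 to 0.329), the mark set for pairing. The main test of this comparison had no block and did not use the pairing, which entered only through the replicate block alternative. With the block, the edgeR adjusted p went from 0.0236 to 0.00845 for HAB1 (log2 fold change -0.56) and from 0.105 to 0.115 for ABI1. No call changed in this comparison. The sources used here do not say what a number shares.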

Additional observations from a re-analysis of the deposited data

Results flagged for a closer look

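The effect of NAE 18:2 on ABI1 differed between organs, with a log2 difference of 1.41 between roots and cotyledons (edgeR adjusted p = 0.00345). ABI1 was at 153, 92.6 and 121 CPM in NAE 18:2 roots against 71.6, 68.4 and 65.2 CPM in DMSO roots, and at 37.4, 25.4 and 33.4 CPM in NAE 18:2 cotyledons against 47.5, 52.6 and 45.2 CPM in DMSO cotyledons. The difference between NAE 18:3 and NAE 18:2 in ABI1 also differed between organs, by -2.05 on the log2 scale (edgeR adjusted p = 1.79e-05), in a contrast chosen after the data were seen.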

How the results depend on the processing

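Counts of members called kept within 1.5 times of those given in every comparison with RLE normalization, no filter on low counts, only the 6 libraries compared, and the near-equal NAE 18:2 seedling libraries summed, except for the contrast of the NAEs across organs, where RLE gave 2. With only the 6 libraries compared, ABI1 between the NAEs in cotyledons was not called (1.05, edgeR adjusted p = 0.0131), which left 2 of 3 calls there. At an adjusted p under 0.05 and any fold change, the counts were 3 for NAE 18:3 and 4 for NAE 18:2 in roots, 1 for NAE 18:2 in cotyledons (HAB1, lower), 3 for NAE 18:3 and 1 for NAE 18:2 in seedlings, 1 and 2 for the organ difference of the NAE 18:3 and NAE 18:2 effects, 2 between the DMSO organs and 3 for the NAEs across organs. In a fit of all 27 libraries they were 1 for NAE 18:2 in roots, 1 for NAE 18:3 in cotyledons, 2 for each NAE in seedlings, and 0 in roots and 1 in cotyledons between the NAEs. DESeq2 called 2 for each NAE in seedlings, where it called 12.7% of genes for NAE 18:3 and 8.18% for NAE 18:2, and 3 for the NAEs across organs. Without both low seedling libraries the counts were 4 for NAE 18:3 (22.8% of genes called) and 2 for NAE 18:2 (19%). Counts given without such a share show how calls depend on the setting, not how members compare with other genes. In roots, 41.9% of genes with NAE 18:3 and 15.9% with NAE 18:2 already passed an adjusted p under 0.01 at any fold change (edgeR). Leaving out each library in turn gave 0 to 2 for NAE 18:3 in seedlings, 0 to 2 in roots and 0 to 3 in cotyledons between the NAEs, 0 to 1 for the organ difference of NAE 18:2 and 1 to 2 for the NAEs across organs, and the cause was not tested. With the replicate number as a block, ABI1 between the NAEs in cotyledons was not called (1.04, edgeR adjusted p = 0.0109) and no other call changed. Libraries with the same number were paired by correlation for DMSO and NAE 18:2 cotyledons only, and those of NAE 18:3 and NAE 18:2 cotyledons were at 0.0984 to 0.128.

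No called member turned its direction under any alternative. Members not called in the comparison did so when single libraries were left out. Against DMSO with NAE 18:3, the log2 fold changes ran from -0.074 to 0.16 for HAB1 in roots, -0.047 to 0.13 for HAB1, -0.14 to 0.0087 for HAB2 and -1.03 to 0.50 for AHG1 in cotyledons, and -0.072 to 0.026 for HAB2 and -1.47 to 0.039 for AHG1 in seedlings, where HAB2 was at 0.025 without both low libraries. With NAE 18:2 they ran from -0.018 to 0.058 for HAB2 in roots, -0.15 to 0.18 for ABI2 and -0.36 to 0.72 for HAI1 in cotyledons, and -1.19 to 0.40 for AHG1 in seedlings. Between the NAEs in seedlings they ran from -0.12 to 0.18 for ABI1, -0.43 to 0.72 for ABI2, -0.24 to 0.42 for HAB1, -0.039 to 0.069 for HAB2 (-0.0023 with only the 6 libraries), -0.65 to 0.12 for AHG1 and -0.0084 to 0.84 for HAI2. For organ differences they ran from -2.20 to 1.41 for AHG1 and -0.057 to 0.26 for AHG3 in the NAE 18:2 effect, -0.50 to 0.59 for HAI1 in the NAE 18:3 effect, and -0.28 to 0.040 for AHG3 and -0.23 to 0.85 for HAI1 between DMSO roots and DMSO cotyledons. Depth limits AHG1, HAI3 and HAI2 in DMSO roots, where single libraries held 0 to 10 counts.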
